A study of Mus musculus with 2 samples.

Results

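The nuclear genes of oxidative phosphorylation were compared between CX3CR1high CD11b+ CD11c+ cells of the large intestinal lamina propria, called the colon pool, and Ly6c+ CD11b+ blood monocytes, called the blood pool. The colon cells came from CX3CR1gfp/+ mice, whose Cx3cr1 locus carries green fluorescent protein on one allele, and the monocytes from C57BL/6J mice. Each was pooled, with n = 10 stated for the CX3CR1high cells and n = 6 for the monocytes but not what n counts, and no age or treatment is given. Both pools met on 2 arrays in opposite dyes, which makes 1 replicate measured in duplicate. Genotype and tissue of origin differ together between the pools and cannot be told apart. The genes were every gene of the array design whose name begins with Nduf, Sdha, Sdhb, Sdhc, Sdhd, Uqcr, Cox4 to Cox8 or Atp5, chosen by name and not by value. They were 90 genes of 27238 named genes, read by 129 spots and 120 probes, and 88 of the 90 were measured. A gene counts as measured where one pool cleared the scanner software's flag for signal well above background on each array, as 15680 genes in all did. Of these names, 3 are not chain subunits by their current symbols: Cox4nb is now Emc8, Atp5s is Dmac2l and Atp5sl is Dmac2.

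Oxidative phosphorylation takes place in the inner mitochondrial membrane. Complexes I and II pass electrons from NADH and succinate to ubiquinone, complex III passes them to cytochrome c and complex IV to oxygen, and complex V, the ATP synthase, uses the resulting proton gradient to make ATP. The nuclear genes studied here encode most subunits, while the remaining subunits are encoded in mitochondrial DNA and are not analysed here. Macrophages and monocytes are known to shift between respiration and glycolysis with their activation state. Several complex IV subunits exist as a ubiquitous form and a second form known mainly from muscle, lung or testis.

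Ratios are log2 values of colon over blood after background correction and within-array loess normalization, and each mean is given with the SD between the 2 arrays. That SD covers technical error alone, and with 1 replicate no p-value was computed. Genes were called by size: higher where the ratio was at least 1 (2-fold) on each array, and lower where it was at most -1 on each. In pooled RNA, fewer cells of a type and less RNA per cell cannot be told apart.

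The array probes of the called genes are shown because the calls rest on 1 probe each. All are 60-base probes, given 5′ to 3′ in lower case with no base marked, at their positions in the array design on mouse build mm9. The Cox6a2 probe lies at chr7:135349160-135349219 on the minus strand. The Cox7a1 probe lies at chr7:30970337-30970948 on the plus strand and crosses an intron. The Ndufaf2 probe lies at chr13:108843015-108843074 on the minus strand.
Cox6a2: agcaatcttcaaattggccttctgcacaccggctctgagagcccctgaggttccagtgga
Cox7a1: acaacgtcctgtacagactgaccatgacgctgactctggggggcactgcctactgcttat
Ndufaf2: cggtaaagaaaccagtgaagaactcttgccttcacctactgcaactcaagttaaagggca

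The pools carried many marks of their labels and also marks of other cells. Of 13 genes of resident intestinal macrophages 11 were higher in colon (median 3.58), and of 10 Ly6C-high monocyte genes 8 were lower (median -3.11). Not called among the 13 were Cd68 at 0.80 ± 0.01 and Cx3cr1, the gene of the colon label. Cx3cr1 was at 0.10 ± 0.25, with 0.28 on array 1 and -0.08 on array 2. Not called among the 10 monocyte genes were Itgam at -0.46 ± 0.33 and Csf1r at 0.95 ± 0.34. Csf1r was above 0 on both arrays, at 1.19 and 0.71. In the colon pool 8 of 8 fibroblast genes and 10 of 12 epithelial genes were also higher. So were 8 of 9 B and plasma cell genes and 5 of 7 measured T cell genes, while 4 of 9 measured neutrophil genes were lower. Of all measured genes 14.2% were higher and 4.46% lower. The summed intensity of the fibroblast genes was 140580 and 58576 in the colon pool, against 1186 and 2502 in the blood pool on arrays 1 and 2, and that of the epithelial genes 9678 and 4108, against 889 and 1204. The B and plasma cell genes summed to 44484 and 17437 in the colon pool, against 2074 and 4572 in the blood pool. Jchain gave 36393.7 and 13876.5 of those colon sums. The T cell genes summed to 8409 and 3444 in the colon pool, against 1551 and 2298 in the blood pool. Cd4 gave 4549 and 1806 of those colon sums. Cd3g and Cd3e were not called, at 0.79 and 0.58, and Cd8a and Trat1 were not well above background in either pool. The neutrophil genes summed to 12557 and 3759 in the colon pool, against 81581 and 149641 in the blood pool. Of that blood sum S100a9 gave 58376 and 101740, and S100a8 gave 17918 and 36969. The 4 lower genes were S100a8, S100a9, Mmp8 and Cxcr2. Mmp9 and Elane were above 0 on both arrays, at 0.96 and 0.47, and Ltf, Mpo and Camp were at 0.00, -0.27 and -0.33. In the blood pool Ltf read only 61.2 and 68.3, and Camp 73.3 and 110.8, over a local background of 40.5 and 43.0. Ngp was not well above background in either pool. The part of these cells in the ratios of the oxidative phosphorylation genes was not tested.

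After loess the oxidative phosphorylation genes as a set sat close to equality between the pools, though their median was -0.85 with median centring. Of the 88 measured, 3 were higher in the colon pool (Cox6a2, Cox7a1 and Ndufaf2), against 14.2% of all measured genes. None was lower, against 4.46% of all measured genes, and 18.6% of all measured genes were called in either direction. Their median ratio was -0.13, with -0.15 on array 1 and -0.07 on array 2, while the median of all measured genes was 0.06. The quartiles of the set were -0.30 and 0.11, and it ranged from -0.82 to 1.90. Within 0.5 of equality after loess lay 74 of the 88, or 84.1%, against 56.2% of all measured genes. Below 0 on both arrays were 49 of the 88, against 39.5% of all measured genes, 27 were above 0 on both, against 47.7%, and 12 had mixed signs. With the software's ratios 57 were below 0 on both arrays and 21 above, and with median centring, which sets the arrays apart, 27 and 5. By the mean of both arrays 57 genes were below 0 and 31 above after loess, 62 and 26 with the software's ratios and 80 and 8 with median centring. No test stands behind these shares, and the set is bright: its median member was brighter than 89.9% of the measured genes.

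**Figure D1:**
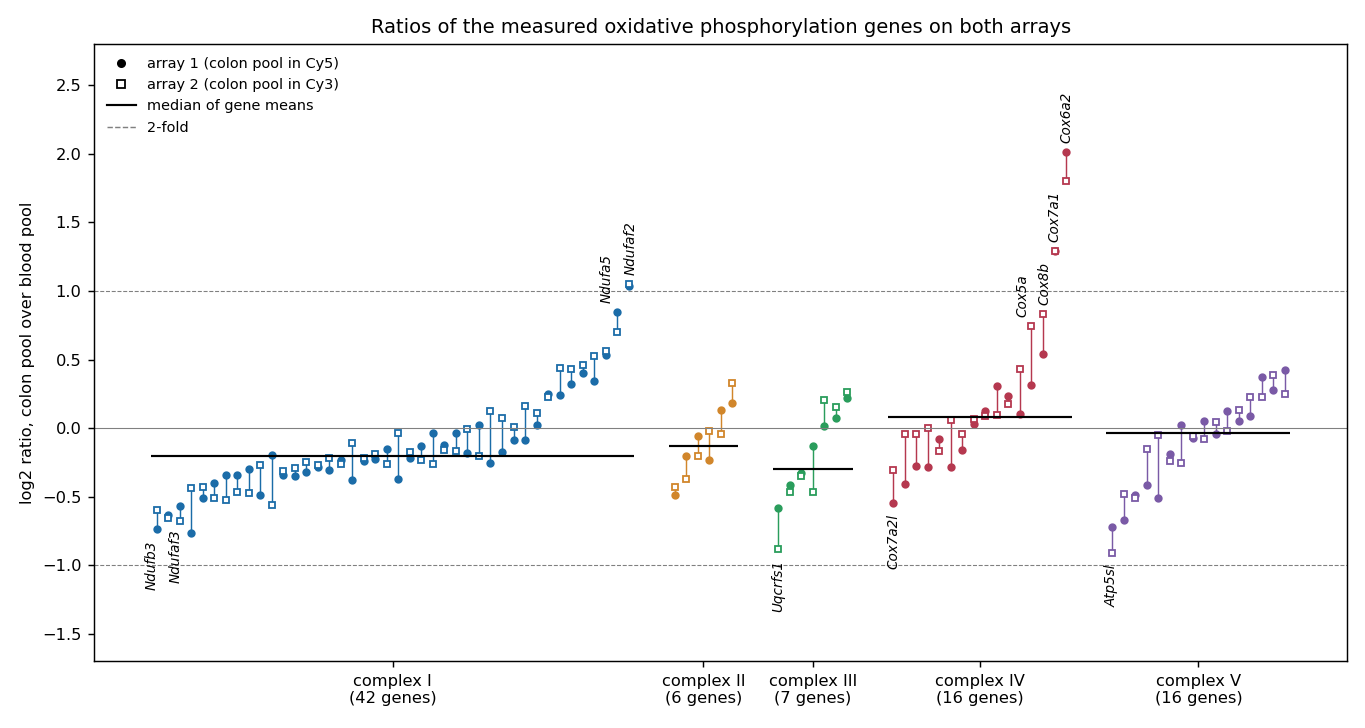
Log2 ratio of colon over blood for 87 measured genes grouped by complex (Cox4nb is left out), with array 1 as filled circles, array 2 as open squares, the median of each complex as a bar and 2-fold as dashed lines. Cox6a2, Cox7a1 and Ndufaf2 lie past the upper 2-fold line on both arrays, and no gene lies past the lower one.

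The unnormalized spots show how far these values depend on scaling. The median raw ratio of colon over blood over the 88 genes was 1.33-fold on array 1, where the colon pool carried Cy5, and 0.208-fold on array 2, where it carried Cy3. Over all measured genes the same medians were 1.504-fold and 0.391-fold, so most genes were brighter in the blood channel of array 2. Loess removes an imbalance that varies with brightness. With each array only centred on its median, the 88 genes had a median of -0.85 (0.16 on array 1 and -1.92 on array 2), and all measured genes -0.28. The set therefore lay 0.19 below all genes after loess, 0.10 below with the scanner software's own ratios and 0.57 below with centring alone. Under centring alone the genes named as cytosolic ribosomal proteins, another bright set, had a median of -0.84.

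**Figure D2:**
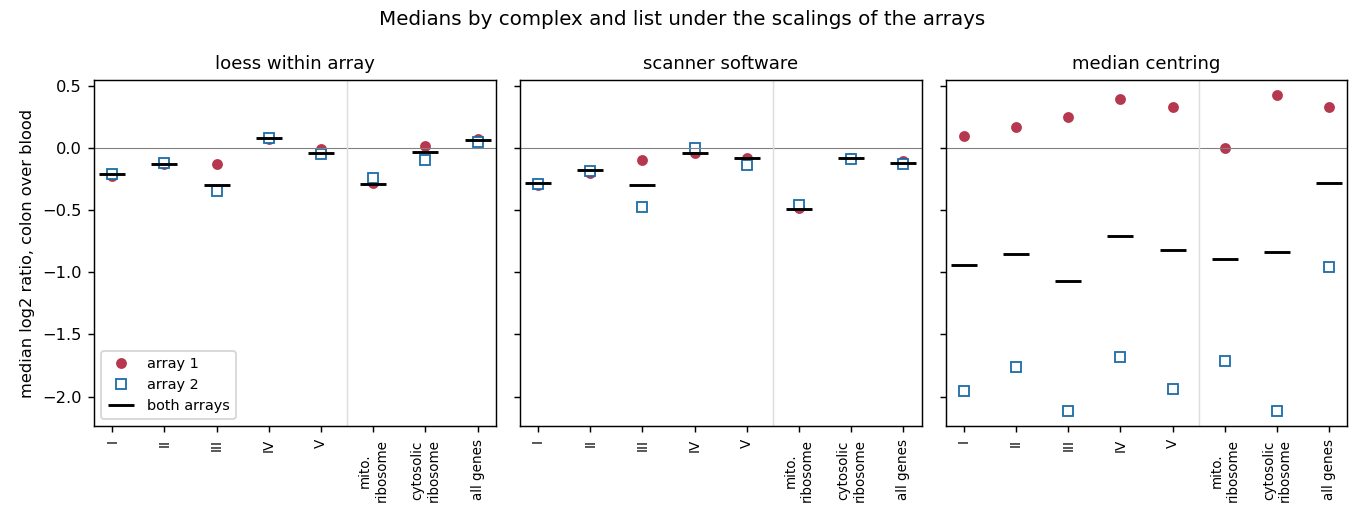
Median log2 ratio of colon over blood for complexes I to V, mitochondrial and cytosolic ribosomal proteins and all measured genes, under loess, the scanner software and median centring, with array 1 as circles, array 2 as squares and both arrays together as bars. Under loess the complexes lie between -0.30 and 0.08, and under median centring between -1.07 and -0.71 with the arrays far apart.

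Complex I, the NADH dehydrogenase, was measured through all 42 of its listed genes and had a median ratio of -0.21 (-0.22 on array 1 and -0.21 on array 2). Of the 42 genes 1 was higher, the assembly factor Ndufaf2, against 14.2% of all measured genes. None was lower, against 4.46%. The 7 nuclear-encoded core subunits, which carry the flavin, the iron-sulfur clusters and the quinone site, had a median of -0.27 and ranged from -0.43 to -0.09. All 7 were below 0 on both arrays, against 39.5% of all measured genes. They were also below 0 on both with the scanner software's ratios. With median centring, where the arrays part, only 3 were, though all 7 means were below 0. None passed the size rule. Ndufs8, an iron-sulfur subunit, had the lowest ratio of the core at -0.43 ± 0.13, from spot intensities of 2392 and 886 in the colon pool, against 2105 and 5121 in the blood pool on arrays 1 and 2. Ndufv1, which binds NADH and the flavin, had the core's ratio nearest 0, at -0.09 ± 0.12, from 8999 and 3302 in the colon pool, against 6874 and 14935 in the blood pool. Between them lay Ndufv2 at -0.39 ± 0.13, Ndufs3 at -0.33 ± 0.02, Ndufs1 at -0.27 ± 0.01 and Ndufs7 at -0.25 ± 0.02, among others. The SDs between the arrays reached 0.13 in the core.

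The 30 accessory subunits of complex I, which surround and stabilise the core, had a median of -0.21 and ranged from -0.67 to 0.77. Genes were assigned by name, so the 30 include Ndufa4 at -0.04 ± 0.07, which is now counted with complex IV. Its paralogue Ndufa4l2 is among the 42 genes listed for complex I. The 10 Ndufb subunits of the membrane arm had a median of -0.25. After loess 9 of them were below 0 on both arrays, against 39.5% of all measured genes. With the software's ratios 10 were, and with median centring 5. The means of all 10 were below 0 under each of these scalings, with a median of -1.03 under median centring. The lowest was Ndufb3, with 4679 and 1768 in the colon pool, against 5358 and 11531 in the blood pool and ratios of -0.74 and -0.60 on arrays 1 and 2. Ndufs4, whose loss in mice causes a fatal brain disease resembling Leigh syndrome, had 3199 and 1135 in the colon pool, against 3286 and 7569 in the blood pool, and ratios of -0.57 and -0.68. Neither gene reached the size rule.

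At the other end, Ndufa5, a subunit of the arm that faces the matrix, had the highest ratio of any accessory subunit. Its spots read 9611 and 3485 in the colon pool, against 3638 and 9425 in the blood pool. The ratios were 0.85 and 0.70, which leaves Ndufa5 as the nearest gene under the 2-fold threshold, whereas Ndufaf2 is the nearest above it. Ndufa2, Ndufa12 and Ndufc2 followed at 0.43 ± 0.12, 0.43 ± 0.04 and 0.38 ± 0.07. The accessory subunits thus spread on both sides of 0. On both arrays 20 of the 30 were below 0 and 7 above, against 39.5% and 47.7% of all measured genes.

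Ndufv3, an accessory subunit of the NADH-binding module, gave opposite values from its 2 probes. The brighter probe, at chr17:31668209-31668268 on the plus strand of mm9, had a ratio of 0.34 and stands for the gene. The dimmer one, at chr17:31665148-31665207 on the same strand, had -0.57. Both probes are shown, since the sign of the gene rests on which one is read.
Ndufv3 brighter probe: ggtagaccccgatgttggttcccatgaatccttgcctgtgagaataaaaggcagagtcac
Ndufv3 dimmer probe: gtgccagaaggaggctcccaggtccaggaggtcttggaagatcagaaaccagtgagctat
The dimmer probe read 306 and 140 in the colon pool, against 322 and 624 in the blood pool. The brighter one read 16396 and 5884 in the colon pool, against 9189 and 20437 in the blood pool. Among 23 genes of the set with 2 or more measured probes the median gap between probes was 0.11. Opposite signs also occurred in Ndufb6, Ndufaf4, Uqcrq, Cox7c and Atp5j2, with gaps over 0.5 in Ndufaf4 (0.04 and -0.60) and Cox7c.

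The assembly factors build the complexes without staying in them. Ndufaf2, a paralogue of the subunit Ndufa12 that acts late in complex I assembly, read 1050 and 443 in the colon pool, against 350 and 721 in the blood pool. Its ratios of 1.04 and 1.05, with a mean of 1.04 ± 0.01 or 2.06-fold, passed the size rule narrowly. Raw blood values exceeded raw colon values on array 2, so the size of the ratio depends on the normalization, and with the scanner software's ratios the mean was 0.90 and not called. With median centring array 1 gave 1.30 and array 2 -0.34, a mean of 0.48 that was not called. Ndufa12 itself had 0.43 ± 0.04, so Ndufaf2 exceeded its paralogue by 0.62 ± 0.03 on the log2 ratio scale. Ndufaf3, which acts with Ndufaf4 early in assembly, had 419 and 202 in the colon pool, against 457 and 1059 in the blood pool. Its ratios were -0.63 and -0.66, not called after loess but called lower with the scanner software's ratios, at -1.07. Ndufaf1 and Ndufaf4 were at -0.09 ± 0.16 and 0.04 ± 0.17. Sdhaf1 and Sdhaf2, which insert the iron-sulfur clusters and the flavin of complex II, were at -0.46 ± 0.04 and -0.29 ± 0.12. The 6 assembly factors together had a median of -0.19, and 5 of the 6 did not pass.

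Complex II, succinate dehydrogenase, also a step of the tricarboxylic acid cycle, showed no called gene among 6 measured, against 18.6% of all measured genes. Its median was -0.13, and that of its 4 subunits alone -0.04. Sdha, the flavoprotein that oxidises succinate, read 4549 and 1617 in the colon pool, against 2858 and 7030 in the blood pool, with a ratio of 0.04 ± 0.13. The iron-sulfur subunit Sdhb had -0.13 ± 0.10. Of the membrane anchors, Sdhc was at 0.25 ± 0.10 and Sdhd at -0.13 ± 0.15.

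Complex III, the cytochrome bc1 complex, had the lowest median of the complexes at -0.30, though array 1 gave -0.13 and array 2 -0.35. None of its 7 genes was called, against 18.6% of all measured genes. Uqcrfs1, the Rieske iron-sulfur protein that takes electrons from ubiquinol, read 6513 and 2056 in the colon pool, against 6616 and 16733 in the blood pool. Its ratios were -0.58 and -0.88, with a mean of -0.73 ± 0.21. The 2 core proteins followed, Uqcrc1 at -0.44 ± 0.04 and Uqcrc2 at -0.34 ± 0.02. The Uqcrc2 probe was spotted 10 times per array, and the SD among those spots was 0.034 on array 1 and 0.033 on array 2, which covers the noise between spots alone. Uqcrh, the hinge protein that helps bind cytochrome c1, was at -0.30 ± 0.23. The small subunits Uqcr (now Uqcr11), Uqcrq and Uqcrb stood above 0 on both arrays, at 0.11 ± 0.13, 0.11 ± 0.05 and 0.24 ± 0.03, so complex III divided into 4 genes below 0 and 3 above. With median centring all 7 means were below 0. Outside the name rule, cytochrome c1 (Cyc1) had -0.09 and cytochrome c (Cycs), the carrier to complex IV, -0.21, neither called.

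Complex IV, cytochrome c oxidase, had 16 measured genes of 18 and a median of 0.08. It held 2 of the 3 called genes, both higher, while 14.2% of all measured genes were higher. Without the forms known from particular tissues, the other 11 had a median of -0.11 and no called gene. Cox4i1, the ubiquitous form of the subunit that ATP regulates, was at -0.23 ± 0.26. Cox5b, which binds zinc, was at -0.16 ± 0.17. Cox5a had the highest ratio of the ubiquitous subunits, with 34465 and 12397 in the colon pool, against 17904 and 37134 in the blood pool. Its ratios of 0.31 and 0.75 differed more than those of most genes of the set. Cox7a2l, which links complexes III and IV in supercomplexes, was lowest at -0.43 ± 0.17, with -0.55 and -0.30. The remaining ubiquitous subunits Cox7b, Cox6b1, Cox6c, Cox8a and Cox7c ran from -0.12 for Cox7b to 0.27 for Cox7c.

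Cox6a2, the heart and skeletal muscle form of subunit VIa, had the highest ratio of the whole set. It read 362 and 172 in the colon pool, against 60.8 and 76.6 in the blood pool, so the colon pool was the brighter one under both dyes without any normalization. Its ratios were 2.01 and 1.80, with a mean of 1.90 ± 0.15 or 3.74-fold. The scanner software, which does not add the offset that compresses dim spots, gave 3.36. Cox6a1, the ubiquitous form, read 99780 and 27604 in the colon pool, against 52523 and 136470 in the blood pool, and its ratio was 0.21 ± 0.04. The ratio of Cox6a2 exceeded that of Cox6a1 by 1.70 ± 0.11, and by 2.41 with median centring.

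Cox7a1, the muscle and brown fat form of subunit VIIa, read 565 and 251 in the colon pool, against 153 and 253 in the blood pool. Its ratios were 1.29 and 1.29, with a mean of 1.29 ± 0.00 or 2.44-fold. The pools were equally bright on array 2, where most genes were brighter in the blood channel, and with median centring array 2 gave 0.24 and the gene was not called. Cox7a2, the ubiquitous form, had -0.14 ± 0.20, so the ratio of Cox7a1 exceeded it by 1.43 ± 0.20.

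The other tissue forms were dim and none was called. Cox8b, the muscle form of subunit VIII, read 117 and 76.8 in the colon pool, against 53.8 and 47.5 in the blood pool, and in the blood pool it was not well above background. Its ratios were 0.54 and 0.83 with the blood spot at its own reading, so they are not measured folds, and the software's ratio was 3.03. Ndufa4l2, which hypoxia induces and whose paralogue Ndufa4 is now counted with complex IV, read 117 and 77.6 in the colon pool, against 54.5 and 54.1 in the blood pool. In the blood pool it too was not well above background, and its ratios on the same terms were 0.54 and 0.56, with a software ratio of 2.97. Both genes count as measured through the colon pool alone. Cox4i2, known from lung and induced by hypoxia, was at 0.20 ± 0.15, and Cox6b2, a testis form, at 0.11 ± 0.02. Cox7b2 and Cox8c, both testis forms, were not well above background in either pool, with readings of 43.1 to 55.4 over a local background of 40.5 to 43.0. Cox6a2, Cox7a1, Cox4i2 and Cox6b2, which cleared the background in both pools, were above 0 on both arrays after loess. However, Cox6b2 was at -0.17 with the software's ratios and -0.42 with median centring. On array 2 Cox4i2 was at -0.05 with the software's ratios and -0.19 with median centring, though its means were 0.13 and 0.18. The ubiquitous paralogues Cox8a and Ndufa4 were at 0.05 ± 0.03 and -0.04 ± 0.07.

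**Figure D3:**
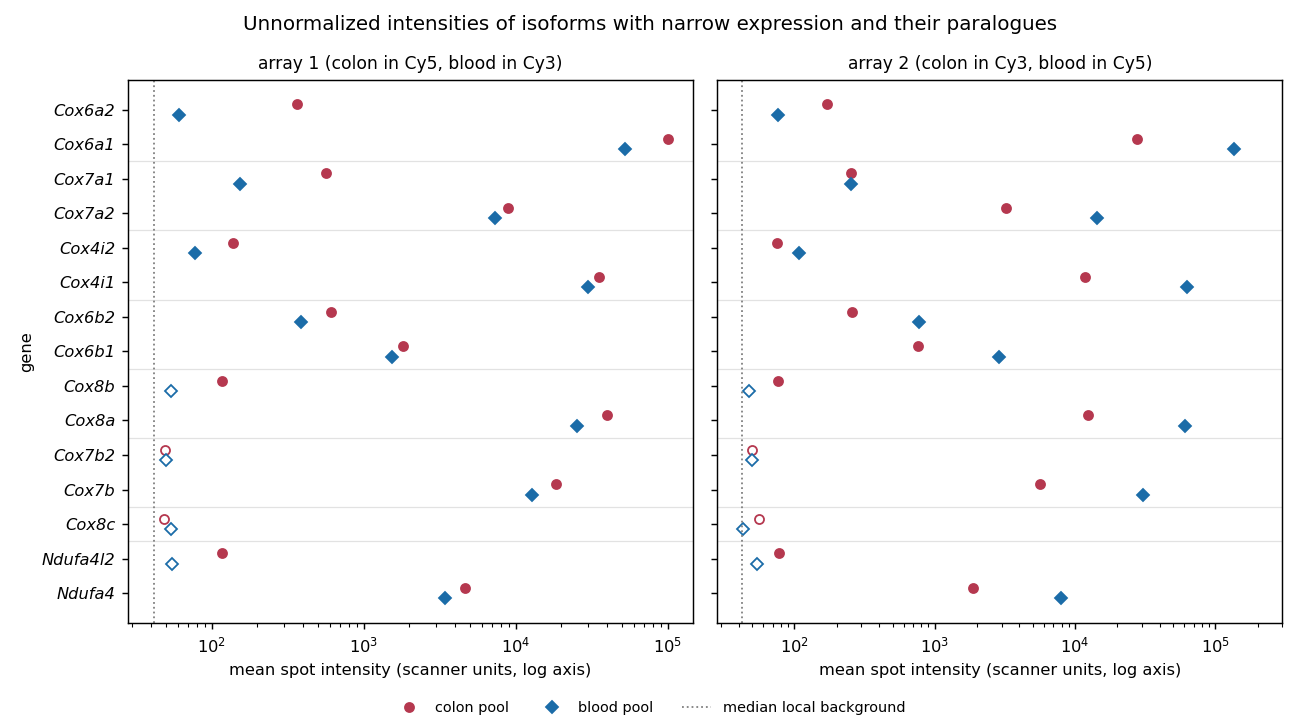
Mean spot intensity on a log axis for tissue forms and their ubiquitous paralogues, with the colon pool as circles and the blood pool as diamonds (open where not well above background) and the mean of both channels' median local background as a dotted line, for array 1 and array 2. Cox6a2 reads 362 and 172 in the colon pool against 60.8 and 76.6 in the blood pool, and Cox7b2 and Cox8c stay near the background in both pools.

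Markers of other cells differed between the same pools. Among 10 mural and smooth muscle genes 8 passed as higher in colon, with a summed intensity of 14710 and 6374 in the colon pool, against 1124 and 2022 in the blood pool, and none was at background in the colon pool. Of 9 plasmacytoid dendritic cell genes 3 were higher, Ly6d, Klk1 and Spib, and 6 were not called. Among those not called, Siglech was at 0.63, and Il3ra at -0.34 was the only gene of the 9 below 0 on both arrays. The sums of the 9 were 45498 and 16277 in the colon pool, against 19224 and 46335 in the blood pool. Of all measured genes 14.2% were higher. Of 10 striated muscle genes none was called, and 7 were not well above background in the colon pool, among them Ckm, Actn2, Mb and Myh7. The other 3 were Acta1 at 0.75 ± 0.01 and Tnnt1 at 0.35 ± 0.18, both above 0 on each array, and Tnni2 at -0.42 ± 0.25. Their sums were 1841 and 1030 in the colon pool, against 1571 and 2745 in the blood pool. Of 5 brown fat genes none was called, and Elovl3, Dio2 and Prdm16 were not well above background in the colon pool. Ucp1 and Cidea cleared it in the colon pool alone, with ratios above 0 on both arrays and means of 0.37 and 0.36. The list had sums of 361 and 287 in the colon pool, against 263 and 278 in the blood pool. The part of mural, smooth muscle, striated muscle, brown fat or plasmacytoid dendritic cells in the ratios of Cox6a2, Cox7a1 and Cox8b was not tested.

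Complex V had a median of -0.04 over 16 measured genes, with none called, against 18.6% of all measured genes. The 5 subunits of the catalytic F1 head had a median of 0.00 and divided among themselves. Atp5b, the catalytic beta subunit, read 48869 and 14739 in the colon pool, against 23266 and 64776 in the blood pool, with ratios of 0.42 and 0.25. Atp5c1, the gamma subunit that turns inside the head, read 20642 and 6456 in the colon pool, against 21355 and 44278 in the blood pool, with ratios of -0.67 and -0.48. Atp5b was thus above 0 and Atp5c1 below it on both arrays, while Atp5a1, the alpha subunit, was at -0.01 ± 0.09. Atp5d and Atp5e, the small stalk subunits, were at 0.16 ± 0.10 and 0.00 ± 0.06. Among the 9 other subunits, with a median of -0.12, Atp5f1 (now Atp5pb) of the peripheral stalk was lowest at -0.50 ± 0.01. Atp5g2, which encodes the c subunit of the proton-driven ring, was highest at 0.30 ± 0.11, and Atp5g3, which encodes the same protein, was at 0.05 ± 0.10. Atp5h, Atp5o, Atp5l, Atp5j, Atp5k and Atp5j2, of the stalk and the membrane part, ran from -0.28 for Atp5h to 0.09 for Atp5j2. Atp5sl, now Dmac2 and known for complex I assembly, had the lowest ratio of the whole set at -0.82 ± 0.14, from 2414 and 853 in the colon pool, against 2758 and 6608 in the blood pool. The other names outside the chain were Atp5s at 0.33 ± 0.08 and Cox4nb at -0.31 ± 0.01.

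**Figure D4:**
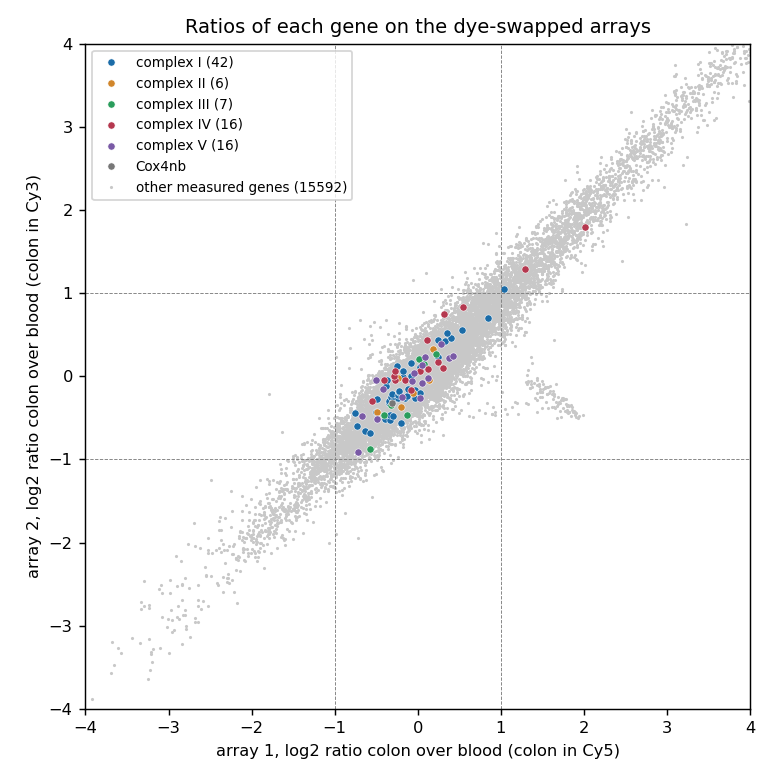
Log2 ratio of colon over blood on array 1 (horizontal) against array 2 (vertical) for the measured oxidative phosphorylation genes, coloured by complex, and the 15592 other measured genes in grey, with 2-fold as dashed lines and genes beyond 4 outside the frame. After loess the set lies near the centre, with Cox6a2, Cox7a1 and Ndufaf2 in the upper right field.

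The loess ratios of both arrays were correlated across genes, with a Pearson r of 0.968 over all 15680 measured genes. Over 86 genes that cleared the background in each pool, the ratios of the arrays had a Pearson r of 0.907, or 0.858 over 82 genes without the tissue forms. The points share the same 2 pools, so r describes technical repeatability across genes. No gene of the set differed by more than 1 between arrays, and none of its spots was saturated or an outlier.

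Genes of neighbouring mitochondrial pathways were counted by the same size rule. Of all measured genes 14.2% were higher, 4.46% lower and 18.6% called in either direction. Of 18 genes of the tricarboxylic acid cycle and pyruvate dehydrogenase, with a median of -0.14, Idh2, the NADP-dependent isocitrate dehydrogenase, was higher at 1.34 and none was lower. Of 36 measured assembly factors outside the name rule, with a median of -0.23, none was called. Of 14 measured regulators of mitochondrial biogenesis, with a median of -0.23, none was called. Of these regulators 5 were above 0 on both arrays and 8 below. The highest was Ppard at 1.01 ± 0.21, with 0.86 on array 1 and 1.16 on array 2, and the lowest Polrmt at -0.78 ± 0.15. Tfam, which packages and transcribes mitochondrial DNA, was at -0.76, and Nrf1, a transcription factor of respiratory genes, at -0.28. Ppargc1a, the coactivator that drives biogenesis, was not well above background in either pool on both arrays.

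Among genes of ubiquinone 3 of 18 were called, and among the carriers and related proteins 1 of 12, while 18.6% of all measured genes were called in either direction. Of 18 measured genes of ubiquinone synthesis and of other enzymes that reduce it, with a median of -0.05, Coq10b, a ubiquinone-binding protein, was higher at 1.46. Sqor, which passes electrons from sulfide to ubiquinone, was lower at -1.44, and Coq2, which attaches the side chain of ubiquinone, was lower at -1.13. Of 12 carriers and related proteins, with a median of 0.19, Atpif1, the protein that inhibits ATP hydrolysis by complex V, was higher at 1.36. The 12 also hold Atp5md at 0.54 and Atp5mpl at -0.13, respiratory genes and not carriers, which have older names in the array design. The adenine nucleotide carriers had opposite ratios, 0.40 for Slc25a4 and -0.67 for Slc25a5, and neither was called. For comparison, 74 mitochondrial ribosomal proteins had a median of -0.29, 94 genes named as cytosolic ribosomal proteins -0.03 and 47 genes named as proteasome genes -0.17. The latter lists were taken by name and also hold other genes, such as the Rps6k kinases and Psmc3ip.

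**Figure D5:**
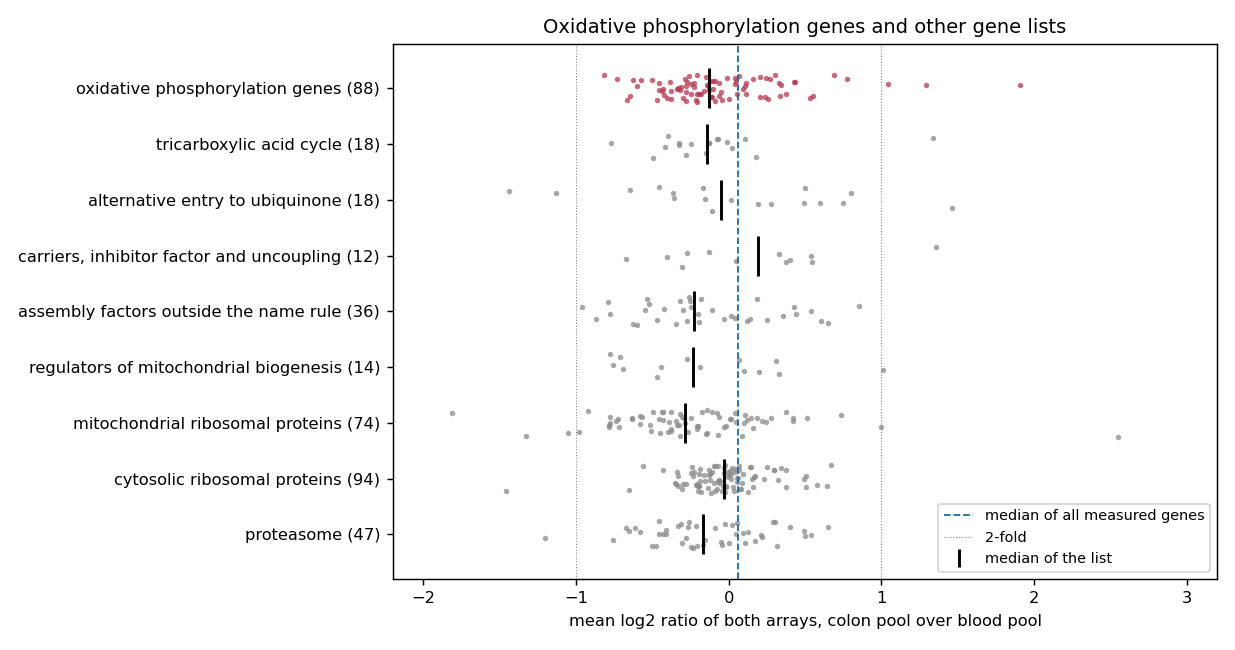
Mean log2 ratio of colon over blood for each measured gene of the oxidative phosphorylation set and of 8 other lists (number of genes in brackets), with list medians as bars, the median of all measured genes as a dashed line and 2-fold as dotted lines. The oxidative phosphorylation median of -0.13 lies among those of the mitochondrial lists, which run from -0.29 to 0.19.

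Known promoter elements of respiratory genes were present in part of the set. RefSeq promoters (build GRCm38.p6, from 250 bases before to 50 bases after the start) were matched for 74 of the 90 genes, and motifs were searched on both strands. The NRF1 motif core GCGCATG occurred in 14 of 74, or 18.9%, against 4.41% of all 27025 genes with such a promoter. The ETS motif CCGGAAG occurred in 25.7% against 9.93%, and the YY1 motif GCCATNTT in 27.0% against 6.96%. The motifs were searched without regard to overlap with each other. Windows around GCGCATG, in capitals, are shown for the 7 genes that hold it on their own strand with its flanks before the start. They are Atp5g2 (chr15:102671063-102671109, minus strand), Atp5k (chr5:108434423-108434469, minus strand), Cox5b (chr1:36691416-36691462, plus strand), Cox6a1 (chr5:115349094-115349140, minus strand), Ndufa11 (chr17:56717682-56717728, plus strand), Ndufaf4 (chr4:24897950-24897996, plus strand) and Ndufb6 (chr4:40279472-40279518, minus strand).
Atp5g2: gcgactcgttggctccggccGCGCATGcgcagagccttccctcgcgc
Atp5k: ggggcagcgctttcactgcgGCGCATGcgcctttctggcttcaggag
Cox5b: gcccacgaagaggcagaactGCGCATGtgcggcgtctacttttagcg
Cox6a1: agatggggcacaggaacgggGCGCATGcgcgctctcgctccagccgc
Ndufa11: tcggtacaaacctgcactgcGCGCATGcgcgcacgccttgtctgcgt
Ndufaf4: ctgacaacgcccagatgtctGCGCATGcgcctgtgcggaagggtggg
Ndufb6: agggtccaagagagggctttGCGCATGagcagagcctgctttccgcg
The ratios of these genes ran from -0.28 for Ndufa11 to 0.30 for Atp5g2, on both sides of 0. Genes with GCGCATG had a median ratio of -0.13 (14 genes) and the other matched genes -0.14 (59 genes), so the genes with and without it had nearly the same median. For CCGGAAG the medians were -0.13 (19 genes) with it and -0.14 (54 genes) without, and for GCCATNTT -0.25 (20 genes) with it and -0.10 (53 genes) without. No test stands behind these differences. A match is a description of letters and not of binding.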

How the data were processed

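Labelling started from 25 ng of RNA and an oligo-dT primer, as the labels' protocols say, for Agilent arrays of 60-base probes. The scanner files hold unnormalized linear intensity, per the file headers: the mean of each spot and the median of its surroundings in both channels. They also hold a log10 ratio (red over green) that the software detrended and dye-normalized, per the file headers. The version of Agilent Feature Extraction is 10.7.3.1 in those headers and 10.5.1.1 per the submitters' processing notes. The log10 values of the deposited table equal these ratios, turned to colon over blood on array 2. Both arrays lay on 1 slide. Whether both used the same extracts is not stated. They were counted as 1 replicate, so no test was run.

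Intensities of all spots were corrected by normexp with an offset of 50 and normalized by loess within each array (limma 3.58.1 in R 4.3.3), with control and outlier spots at weight 0. Log2 ratios of array 2 were turned, spots of a probe averaged, and the brightest probe stood for its gene. The offset compresses ratios of dim genes. The procedure was tested on simulated arrays with a constant dye shift. That test does not cover an imbalance that varies with brightness. The number of arrays limits the precision. Alternatives changed the background correction (none, or an offset of 16), the scaling (median centring, the scanner's ratios, the deposited table), the probe choice, the filter, the threshold and the arrays (each alone).

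Values of named members are those past the size rule, those above background in a single pool, the 3 highest and 3 lowest of each complex, core subunits, and tissue forms with their paralogues, and others were added where a sentence on their role needed them. A withheld result is not reported here. Members, lists and rules were chosen with earlier results of these data known. Of 120 probes, 118 were matched to RefSeq by accession.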

Additional observations from a re-analysis of the deposited data

How the results depend on the processing

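The count of genes higher in the colon pool was 3 under all alternatives except median centring (1, Cox6a2), the software's ratios and the deposited table (4 each: Cox6a2, Cox7a1, Cox8b and Ndufa4l2), a 1.5-fold threshold (4) and a 4-fold threshold (0). The count of lower genes was 0 except with a 1.5-fold threshold (3: Atp5sl, Ndufaf3 and Ndufb3), the software's ratios (1, Ndufaf3) and the deposited table (1). The median of the set was -0.85 with median centring and -0.22 with the software's ratios or the deposited table, and -0.13 to -0.14 with the 3 changes of membership chosen after seeing the data. With median centring the medians of complexes I to V were -0.94, -0.85, -1.07, -0.71 and -0.82. With the software's ratios and the deposited table complexes I, II, IV and V gave -0.28, -0.18, -0.0367 and -0.0827, so complex IV turned sign. The mean over probes gave -0.22 for complex I and -0.18 for complex II, an offset of 16 gave -0.22 and -0.14, and the subunits of complex II alone gave -0.041. Complex IV was 0.0524 without a filter and 0.0500 with both pools required above background. Each array alone gave -0.15 to -0.07 for the set, -0.22 to -0.21 for complex I, -0.13 to -0.12 for complex II, -0.35 to -0.13 for complex III, 0.0688 to 0.0796 for complex IV and -0.05 to -0.01 for complex V. Over all 88 measured genes the mean turned from above to below 0 in 23 with median centring and in 5 with the software's ratios, and in none the other way. Of the 48 measured genes that the naming rule selects, 12 turned sign with median centring, 2 with the software's ratios, 1 with the mean over probes, 5 on array 2 alone and 1 on array 1 alone. For these changes the cause was not tested, apart from thresholds and filters, which change what is counted.

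The SD between arrays holds no biological spread. Genes such as Cox8b and Ndufa4l2 lay near the local background, where the offset compresses ratios. No paired analysis was possible because both arrays measure the same pools and the result comes from no test.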

Other observations

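The array design names 9 further respiratory genes by older names that the name rule does not reach, such as Acn9 for Sdhaf3, and they were added after their values were seen. Ndufaf7, a methyltransferase needed for complex I assembly, was the only one of the 9 past the size rule, lower in the colon pool with ratios of -1.83 and -1.42 on arrays 1 and 2. The others were Atp5md at 0.54, Uqcr10 at 0.32, Ndufaf5 at 0.27, Sdhaf4 at 0.24, Ndufaf8 at 0.04, Atp5mpl at -0.13, Ndufaf6 at -0.30 and Sdhaf3 at -0.32. Atp5md and Atp5mpl also stood in the list of carriers and related proteins.

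Among 74 measured mitochondrial ribosomal proteins, which translate the subunits encoded in mitochondrial DNA, 1 was higher and 2 were lower. The shares over all measured genes were 14.2% higher and 4.46% lower. Mrps6, of the small subunit, was higher at 2.55, and Mrpl33 and Mrpl43, of the large subunit, were lower at -1.81 and -1.33. The 1 lower gene of the list named as cytosolic ribosomal proteins was Rps6ka1 at -1.46, a kinase and not a ribosomal protein.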
